A study of Mus musculus with 10 samples.

Results

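The genes followed here in the muscle of desmin knock-out and wild-type mice were the class IIa histone deacetylase genes Hdac4, Hdac5 and Hdac9, the corepressor genes Dach1 and Dach2, and Gadd45a, Runx1 and Ncam1, whose transcripts are known to climb when a muscle loses its nerve. They were chosen by name, with earlier results of these data known. These 8 of the 54232 genes in the table were all among the 14289 genes that were tested. By the labels the RNA came from the gastrocnemius, a calf muscle, though elsewhere the study also names the adjoining plantaris, of mice whose strain name joins B6J and 129Sv with the allele Destm1Cba/Cscl, with 5 animals of genotype Des -/- (desmin knock-out) and 5 of genotype Des wt/wt (wild-type littermates) at 3 months of age. The allele is a targeted germline mutation, so every cell type of the mutant lacks desmin, the main intermediate filament protein of muscle. According to the methods the RNA of 5 muscles per genotype was pooled, but the table has a column for each mouse and each was used as 1 replicate. Expression was given as regularized log (rlog) values, a log2 scale on which library size is corrected and each value is shrunken towards its gene's average. A difference on this scale therefore understates the fold change, above all for weakly expressed genes, and the sequencing depth behind it is unknown.

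Class IIa histone deacetylases are corepressors without a DNA-binding domain of their own. They sit on MEF2 transcription factors and leave the nucleus when kinases such as CaMKII or SIK phosphorylate them and YWHA proteins bind the phosphorylated form. In denervated muscle HDAC4 accumulates and represses Dach2 and Hdac9, and since DACH2 represses the gene of the muscle transcription factor myogenin (Myog), this axis raises Myog and, through it, the genes of the acetylcholine receptor (AChR). GADD45A, a stress-induced nuclear protein, and RUNX1, a transcription factor that limits wasting of denervated fibers, are induced in the same setting, and NCAM, the neural cell adhesion molecule, spreads from the synapse over the fiber surface.

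The genotype of each library was checked first. Des had rlog values between 11.76 and 11.89 in desmin knock-out and between 16.10 and 17.74 in wild-type mice, which fits the labels. Transcripts that define skeletal muscle fibers (Acta1, Ckm, Mb, Myh4, Myh1, Myh2, Tnnt3 and Actn3) were abundant in all 10 mice, although the summed level of these 8 genes (rlog values taken back to the linear scale and added, in kilo-units) was lower in knock-out (4059 to 4632) than in wild-type muscle (4642 to 9168, or 4642 to 5966 without wild-type mouse 3). Of these genes, Myh2 rose, Myh4 and Actn3 fell, and the others did not pass. Wild-type mouse 3 stood apart from its group, with a mean correlation of 0.982 to the other wild-type mice where these had 0.989 to 0.991. Values without this mouse are therefore given where they change a call or move a value of the 8 genes markedly. Of all tested genes, 7.7% were higher and 5.99% were lower in desmin knock-out muscle at an adjusted p under 0.05 (limma, Benjamini-Hochberg over all tested genes), and the median log2 difference was -0.0029. The excess of higher calls, 1100 against 856, depended on scaling, with 942 against 979 after median centring and 1090 against 1049 after quantile normalization.

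Of the 8 genes, Runx1, Gadd45a and Hdac9 rose and Dach2 fell in desmin knock-out muscle in the test over all genes, whereas Hdac4, Hdac5, Dach1 and Ncam1 did not pass. Thus 3 of 8 were higher and 1 of 8 lower, against the shares of 7.7% and 5.99% among all tested genes. Since the 8 genes were chosen with earlier results of these data known, these counts are no independent evidence. Runx1, Gadd45a and Hdac9 were also the genes whose 5 knock-out values all lay above the 5 wild-type values, a separation found in 7.45% of tested genes, while none of the 8 lay wholly below the wild-type values as 6.97% of tested genes did. Without wild-type mouse 3, Ncam1 passed as well, which made 4 of 8 higher, where 1335 of the 14289 tested genes were higher. Because muscle was sequenced as a whole, fewer cells of a type and less RNA per cell cannot be told apart. The plot of each mouse shows these groups.

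**Figure D1:**
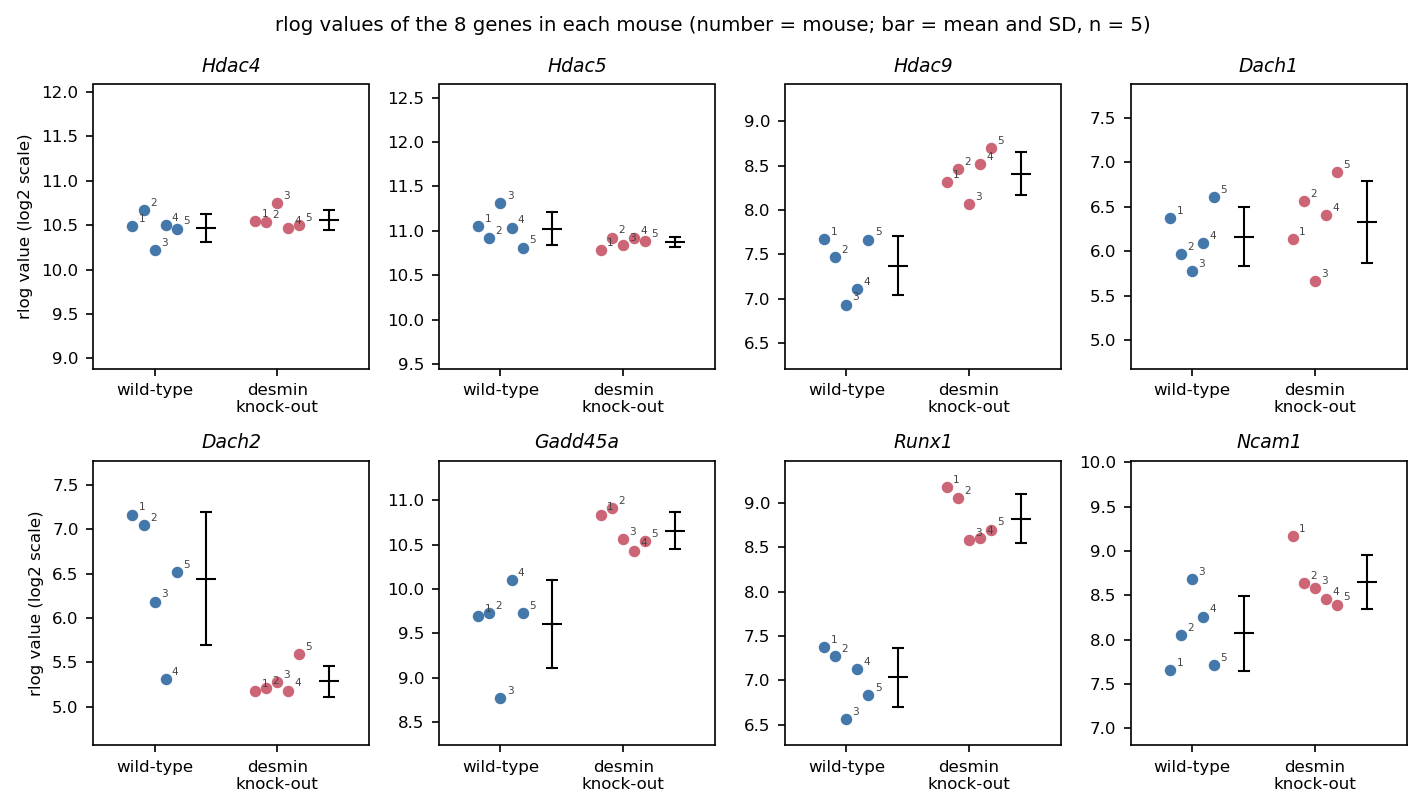
rlog values (log2 scale, vertical axis of equal length in each panel) of the 8 genes in 5 wild-type (blue) and 5 desmin knock-out mice (red), numbered by mouse, with the mean and SD of each group as black bars. Runx1, Gadd45a and Hdac9 do not overlap between genotypes, wild-type mouse 4 lies among the knock-out mice for Dach2, and the groups overlap for the other genes.

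Hdac4 (ENSMUSG00000026313, GRCm38 chromosome 1, 91928779 to 92195699, reverse strand) encodes the deacetylase that gives the axis its name. Its rlog values were 10.54, 10.53, 10.75, 10.47 and 10.50 in knock-out mice 1 to 5 and 10.49, 10.67, 10.22, 10.50 and 10.46 in wild-type mice 1 to 5. The groups overlapped almost fully, and only knock-out mouse 3 lay above every wild-type mouse. Between genotypes it differed by 0.089 on the log2 scale, with a 95% interval from -0.12 to 0.30 (limma, adjusted p = 0.588), so a difference beyond 0.30 on this scale lay outside the interval. It was 0.028 without wild-type mouse 3, the lowest of all. These are RNA values, and the amount and location of the class IIa HDAC proteins were not measured. Hdac4 lies on the same chromosome as Des with a gap of 16.6 Mb between their nearest ends, and since the strain name holds both B6J and 129Sv, an effect of DNA linked to the targeted allele cannot be told apart from an effect of the allele itself.

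Hdac5 (ENSMUSG00000008855, chromosome 11, 102194432 to 102230166, reverse strand), a close relative with which HDAC4 shares its MEF2 partners, had values of 10.79, 10.92, 10.84, 10.91 and 10.88 in knock-out mice and 11.05, 10.92, 11.31, 11.04 and 10.81 in wild-type mice. The knock-out mice lay within a narrow band around the lower end of the wild-type range. This gave a log2 difference of -0.16 (95% interval -0.36 to 0.053, limma, adjusted p = 0.324), and without wild-type mouse 3, the highest of all, it was -0.085. The two-sided exact permutation test over the 10 mice returned p = 0.0873. Without wild-type mouse 5, the lowest of its group, the exact p was 0.0159 with a log2 difference of -0.21, while the limma test over all genes did not pass without any of the 10 mice.

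Hdac9 (ENSMUSG00000004698, chromosome 12, 34047580 to 34917095, reverse strand) encodes the third class IIa member of the list, and also MITR, a shorter product that lacks the deacetylase domain and cannot be separated from it in a table with 1 value per gene. It measured 8.31, 8.47, 8.06, 8.52 and 8.70 in knock-out mice and 7.68, 7.47, 6.93, 7.11 and 7.67 in wild-type mice. Each knock-out mouse lay above each wild-type mouse. Hdac9 was higher by 1.04 on the log2 scale (standard error 0.16, limma, adjusted p = 7.99e-04), which is 2.05-fold on the rlog scale, and the exact permutation test gave p = 0.00794, the smallest p that 5 against 5 mice allow. Without wild-type mouse 3, the lowest value, the log2 difference was 0.93. This rise ran opposite to the repression of Hdac9 described above for denervated muscle, and its cause was not tested.

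Dach2 (ENSMUSG00000025592, chromosome X, 113297510 to 113836386, forward strand), the corepressor that is switched off by HDAC4 after denervation, measured 5.17, 5.21, 5.27, 5.18 and 5.59 in knock-out mice and 7.17, 7.04, 6.18, 5.31 and 6.51 in wild-type mice. Knock-out values were low and close together, whereas the wild-type values were spread out, and wild-type mouse 4 lay among the knock-out mice. Wild-type mice had a mean of 6.44 ± 0.75 and knock-out mice one of 5.29 ± 0.18 (SD, n = 5 each). Dach2 thus differed by -1.16 on the log2 scale (limma, standard error 0.28, adjusted p = 0.0143), and 4 of 5 knock-out mice lay below all wild-type mice. It was the 57th largest fall of the tested genes. The call was lost when genes under the expression limit were tested as well (adjusted p = 0.0541), and without wild-type mouse 4 the log2 difference was -1.44 (adjusted p = 5.53e-04). Since Dach2 is X-linked, transcripts of the Y chromosome were looked at, and Ddx3y, Eif2s3y, Kdm5d and Uty had values between 8.03 and 11.96 in all 10 mice.

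Dach1 (ENSMUSG00000055639, chromosome 14, 97786853 to 98169765, reverse strand), the paralog of Dach2, measured 6.14, 6.57, 5.67, 6.41 and 6.89 in knock-out mice and 6.37, 5.97, 5.78, 6.09 and 6.61 in wild-type mice. Both the highest and the lowest value belonged to knock-out mice. Its log2 difference of 0.17 had a wide 95% interval from -0.30 to 0.63 (limma, adjusted p = 0.649). It moved to 0.030 without knock-out mouse 5, to 0.34 without knock-out mouse 3 and to 0.073 without wild-type mouse 3.

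Gadd45a (ENSMUSG00000036390, chromosome 6, 67035096 to 67037457, reverse strand) measured 10.84, 10.92, 10.56, 10.43 and 10.54 in knock-out mice and 9.70, 9.73, 8.77, 10.10 and 9.73 in wild-type mice. The lowest knock-out mouse lay above the highest wild-type mouse, and wild-type mouse 3 was the lowest of all. Gadd45a was higher by 1.05 on the log2 scale (standard error 0.20, limma, adjusted p = 0.0029), or 2.08-fold on the rlog scale. Without wild-type mouse 3 it was 0.85 (adjusted p = 2.26e-04). The gene E230016M11Rik runs over Gadd45a on the opposite strand and shares 337 exonic bases with it. How reads of the overlap were counted is not given in the sources used here. E230016M11Rik itself measured between 3.95 and 5.57, and the effect of the overlap on the Gadd45a values was not tested. Opposite-strand genes also share exonic bases with Hdac4 (Gm26720, 3536 bases), Ncam1 (Gm11149, 417 bases) and Runx1 (Gm26626, 106 bases). Gm26720, Gm11149 and Gm26626 had rlog values of 0 or below in all mice, and the effect of their overlaps was not tested.

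Runx1 (ENSMUSG00000022952, chromosome 16, 92601466 to 92826149, reverse strand) showed the largest difference of the 8 genes. It measured 9.18, 9.05, 8.58, 8.60 and 8.70 in knock-out mice and 7.38, 7.27, 6.57, 7.12 and 6.84 in wild-type mice. More than 1 log2 unit separated the lowest knock-out from the highest wild-type mouse. Runx1 was higher by 1.79 on the log2 scale (standard error 0.17, limma, adjusted p = 1.24e-05), or 3.45-fold on the rlog scale, and it was the 40th largest rise of the tested genes. Without wild-type mouse 3 it was 1.67. Runx1 is also a gene of blood and satellite cells, and markers of macrophages and of satellite cells were measured beside it. None of the 8 macrophage markers (Ptprc, Cd68, Adgre1, Csf1r, Itgam, Lyz2, Cd14 and Mrc1) and none of the 7 satellite cell markers (Pax7, Myf5, Vcam1, Cdh15, Calcr, Heyl and Chrdl2) passed the test. The summed macrophage markers ranged from 1.88 to 2.58 kilo-units in knock-out and from 1.48 to 2.37 in wild-type mice (2.09 to 2.37 without wild-type mouse 3), and the satellite cell markers from 1.32 to 1.38 and from 1.21 to 2.05 kilo-units (1.21 to 1.52 without that mouse).

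Ncam1 (ENSMUSG00000039542, chromosome 9, 49502136 to 49798925, reverse strand) measured 9.17, 8.64, 8.58, 8.45 and 8.39 in knock-out mice and 7.66, 8.05, 8.69, 8.26 and 7.71 in wild-type mice. The knock-out mice lay above the middle of the wild-type range, but wild-type mouse 3 exceeded 4 of them. The log2 difference was 0.57 (95% interval 0.15 to 1.00) and did not pass over all genes (limma, adjusted p = 0.0731). Without wild-type mouse 3 it was 0.73 (limma, adjusted p = 0.00798), so this mouse decided the call. Over the 10 mice the exact permutation p was 0.0476, and it exceeded 0.05 whenever a mouse other than wild-type mouse 3 was left out, up to 0.103 without knock-out mouse 1. Such exact tests were made for all 8 genes and were not adjusted. Schwann cells also carry NCAM, and none of the 5 tested of 6 Schwann cell markers (Mbp, Sox10, S100b, Pmp22, Prx and, under the expression limit, Ngfr) passed the test, with sums of 1.47 to 2.11 kilo-units in knock-out and 1.20 to 2.17 in wild-type mice.

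Markers of fibroblasts, endothelium and erythroid cells did include genes that passed. Of 5 fibroblast markers, Lum, Col1a1 and Col3a1 rose while Dcn and Pdgfra did not pass, and their sum ranged from 11.9 to 18.1 kilo-units in knock-out and from 8.49 to 17.2 in wild-type mice. Of 5 endothelial markers, Cdh5, Pecam1, Tie1 and Tek fell and Kdr did not pass, with sums of 3.01 to 4.24 and 4.24 to 5.60 kilo-units. Erythroid markers fell for Alas2 and Hbb-bs out of 5, with sums of 2.87 to 4.35 and 4.09 to 10.6 kilo-units, of which wild-type mouse 3 held the highest (4.09 to 5.01 in the other wild-type mice). The part of any of the marked cell types in the values of the 8 genes was not tested.

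To compare levels between genes, the log2 of the summed exon length in kb was subtracted from the rlog values. On this per-length scale, Gadd45a had the highest level of the 8 genes in wild-type muscle (8.79 ± 0.50, SD, n = 5), followed by Hdac5 (7.89 ± 0.19), Hdac4 (6.49 ± 0.16) and Ncam1 (4.96 ± 0.42). Hdac9 (3.50 ± 0.34), Runx1 (3.45 ± 0.33), Dach1 (3.29 ± 0.33) and Dach2 (3.14 ± 0.75) followed so closely that neighbours in this order differed by less than their SDs. In knock-out muscle the first 4 genes kept this order of levels per length. Runx1 came next with 5.24 ± 0.27, less than the SD of Ncam1 (5.53 ± 0.31) below it, then Hdac9 with 4.54 ± 0.24, Dach1 with 3.46 ± 0.46 and Dach2 with 1.98 ± 0.18. Summed exons overstate the length of genes with many alternative ends, such as Hdac4 and Hdac9.

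Whether the genotype moved 2 of these genes unequally was tested on the difference of their rlog values within each mouse, for 7 pairs, by two-sided exact permutation tests with Benjamini-Hochberg adjustment over the 7. Such differences do not depend on the scaling of a sample, although rlog shrinks weakly expressed genes more. Hdac4 lay above Hdac9 by 3.10 ± 0.27 in wild-type and by 2.15 ± 0.34 (SD, n = 5 each) in knock-out mice, a change of -0.95 (standard error 0.19, exact p = 0.00794, adjusted p = 0.0139). For Hdac5 and Hdac9 the change was -1.19 (standard error 0.24, exact permutation test, adjusted p = 0.0139), and no knock-out mouse reached the wild-type range in either pair. Hdac4 against Hdac5 changed by 0.25 (standard error 0.16), which did not pass (exact permutation test, adjusted p = 0.176) and was 0.11 without wild-type mouse 3. Hence Hdac9 moved unequally to both of its relatives.

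Dach1 minus Dach2 was -0.28 ± 0.74 in wild-type and 1.05 ± 0.40 (SD, n = 5 each) in knock-out mice, a change of 1.33 (standard error 0.38, exact permutation test, adjusted p = 0.0222). The 2 groups overlapped, as wild-type mouse 4 with 0.79 lay above knock-out mouse 3 with 0.39. Runx1 gained on Ncam1 by 1.21 (standard error 0.31) and on Gadd45a by 0.73 (standard error 0.16), both without overlap between genotypes (exact permutation test, adjusted p = 0.0139 for each). Without wild-type mouse 3 the gain on Ncam1 was 0.94 and that on Gadd45a was 0.82. Ncam1 against Gadd45a changed by -0.48 (standard error 0.38, exact permutation test, adjusted p = 0.222), and wild-type mouse 3 lay far above the other mice of its group with -0.082. Without this mouse the change was -0.12.

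**Figure D2:**
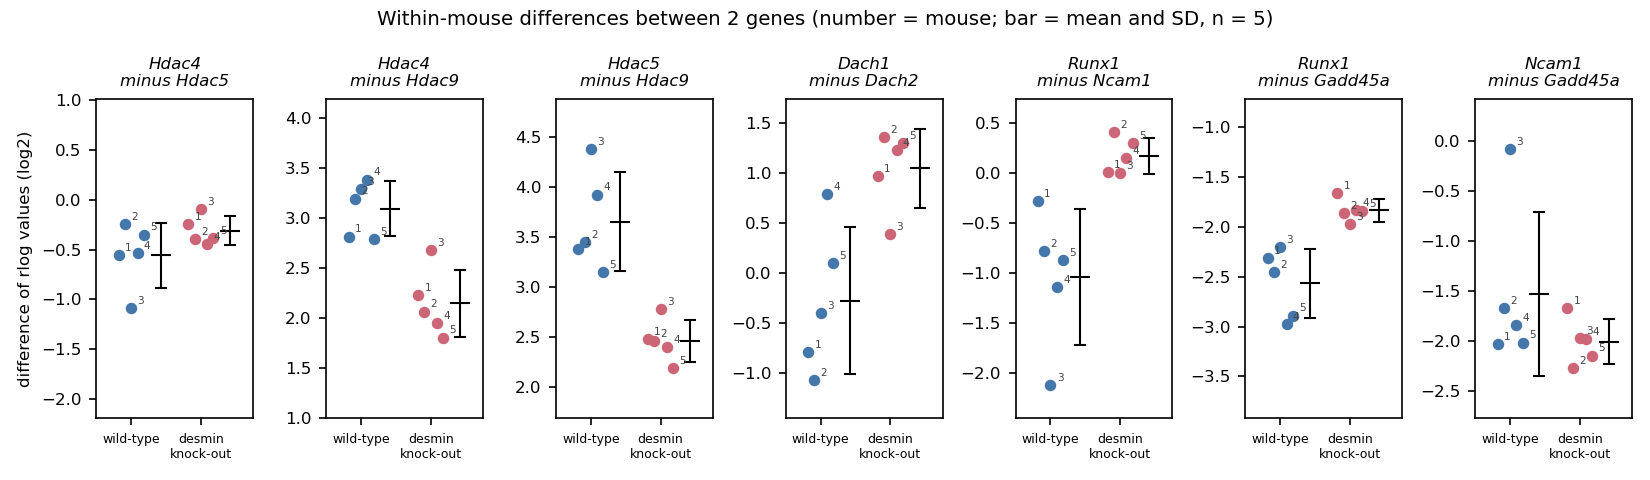
Difference between the rlog values (log2) of 2 genes within each mouse for 7 gene pairs, with 5 wild-type (blue) and 5 desmin knock-out mice (red) numbered by mouse and the mean and SD as black bars. The pairs of Hdac4 and Hdac5 with Hdac9, and of Runx1 with Ncam1 and Gadd45a, separate the genotypes, whereas Hdac4 minus Hdac5 and Ncam1 minus Gadd45a overlap.

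The sequence before the start of the 4 genes that changed is shown because each is a possible target of the axis. MYOG is a binder of E-boxes (CANNTG), class IIa HDACs are partners of MEF2, and RUNX1 is a binder of TGTGGT or its reverse complement ACCACA. The 250 bases before the RefSeq start that lies furthest upstream (GRCm38.p6) are given 5′ to 3′ in lower case with E-boxes in capitals.
Runx1 (chr16:92826075-92826324, reverse strand): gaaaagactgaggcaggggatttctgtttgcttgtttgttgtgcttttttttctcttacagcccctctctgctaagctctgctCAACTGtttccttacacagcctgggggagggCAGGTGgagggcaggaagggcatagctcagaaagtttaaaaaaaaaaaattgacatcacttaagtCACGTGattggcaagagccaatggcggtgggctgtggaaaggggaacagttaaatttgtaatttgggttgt
Hdac9 (chr12:34917096-34917345, reverse strand): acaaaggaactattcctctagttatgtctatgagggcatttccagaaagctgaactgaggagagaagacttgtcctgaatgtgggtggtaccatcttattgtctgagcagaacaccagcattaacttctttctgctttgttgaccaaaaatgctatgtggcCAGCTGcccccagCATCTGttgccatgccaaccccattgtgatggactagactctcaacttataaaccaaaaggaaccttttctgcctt
Gadd45a (chr6:67037408-67037657, reverse strand): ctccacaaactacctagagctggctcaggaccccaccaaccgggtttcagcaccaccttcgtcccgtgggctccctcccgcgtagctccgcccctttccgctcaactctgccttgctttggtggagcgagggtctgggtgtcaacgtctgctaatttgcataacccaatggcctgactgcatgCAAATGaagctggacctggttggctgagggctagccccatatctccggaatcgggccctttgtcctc
Dach2 (chrX:113297260-113297509, forward strand): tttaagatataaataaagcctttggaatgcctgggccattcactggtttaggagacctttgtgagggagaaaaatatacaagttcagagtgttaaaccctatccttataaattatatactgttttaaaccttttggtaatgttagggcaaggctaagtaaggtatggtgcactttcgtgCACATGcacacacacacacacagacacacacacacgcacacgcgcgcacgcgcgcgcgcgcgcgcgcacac

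Runx1 holds 3 E-boxes, starting 167, 136 and 71 bases before the start, Hdac9 holds 2 (89 and 76 bases before it), and Gadd45a and Dach2 hold 1 each (67 and 71 bases before it). E-boxes are common letters, found on either strand in 66.2% of the 32851 windows of the same length before all RefSeq starts. Among the genes that did not pass, Hdac5 has 1 E-box in its window and Hdac4 and Dach1 have none, and Ncam1 had no entry. The RUNX letters, which 14.05% of the windows hold, and the MEF2 consensus, which 2.92% hold, are not in the 4 windows printed above, while the window of Hdac5 has 1 match to the MEF2 consensus. Just after its start Runx1 carries the RUNX letters 2 times, shown in capitals (chr16:92826030-92826049, reverse strand).
Runx1 start: acaACCACAgaACCACAagt

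Windows that include the first 50 bases after the start hold these letters in 16.8% of cases. A match describes the letters only and shows no binding.

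The genes around each of the 8 were then read as lists, whose counts stand against 7.7% higher and 5.99% lower among all tested genes. Most of these lists hold so few genes that 1 called gene is already near or above these shares. Of 12 genes for histone deacetylases and their corepressor NCoR1, 1 passed, namely Hdac9, and the median log2 difference of the list was -0.069. In this list 1 gene lay wholly above and 2 lay wholly below the wild-type values, against 7.45% and 6.97% of all tested genes. Hdac7, the fourth class IIa gene, had a log2 difference of 0.11 (95% interval -0.14 to 0.35). Among 17 genes for kinases of class IIa HDACs and YWHA proteins, 3 were higher and 2 lower, with a median log2 difference of 0.076. Camk2d, a CaMKII subunit gene, rose by 1.07 (limma, adjusted p = 4.76e-04), from 10.64 to 11.57 in wild-type to 12.36 to 12.48 in knock-out mice, and was 0.89 higher without wild-type mouse 3. Camk2a, whose subunit belongs to the same enzyme, fell by 0.54 (adjusted p = 0.00239), and Sik2, a salt-inducible kinase gene, fell by 0.74 (adjusted p = 4.64e-04), both without overlap between genotypes. Camk2b, the subunit gene of fast muscle, had a log2 difference of 0.23 (adjusted p = 0.222), and 0.34 without wild-type mouse 3 (adjusted p = 0.00782). Ywhah and Ywhaz, named after their values were seen, rose by 0.47 and 0.59 (limma, adjusted p = 0.0073 and 0.044), the latter with an adjusted p above 0.05 when any knock-out mouse or wild-type mouse 4 or 5 was left out (up to 0.112 without knock-out mouse 2), and with a log2 difference of 0.39 without wild-type mouse 3.

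The MEF2 list held 10 genes, of which 9 were tested and 1 passed, with a median log2 difference of 0.011. This was Myog, the target at the end of the axis, with 9.68, 9.39, 8.92, 9.07 and 8.90 in knock-out and 7.72, 8.30, 7.66, 8.30 and 7.85 in wild-type mice. All knock-out mice lay above all wild-type mice, and the log2 difference was 1.23 (standard error 0.18, limma, adjusted p = 3.75e-04). The MEF2 genes themselves had log2 differences of 0.35 (Mef2c, adjusted p = 0.101), 0.059 (Mef2a, adjusted p = 0.848) and 0.011 (Mef2d, adjusted p = 0.95), the last of which turned to -0.031 with median centring and the second to -0.084 without wild-type mouse 3.

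DACH proteins work with sine oculis-type homeobox proteins and EYA coactivators, and of 9 genes of this network Dach2 fell and Six4 rose, with a median log2 difference of -0.11. Six4, a homeobox factor of muscle, was higher by 0.43 (standard error 0.12, limma, adjusted p = 0.0333) and did not overlap between genotypes, but its adjusted p exceeded 0.05 without any single knock-out mouse or without wild-type mouse 1, up to 0.0888 without knock-out mouse 3. Eya1 (log2 difference -0.24) and Eya4 (-0.11) did not pass, but without wild-type mouse 3 Eya1 had a log2 difference of -0.32 (adjusted p = 0.0157) and Eya4 of -0.31 (adjusted p = 0.049).

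In the GADD45 list, Gadd45a and Cdkn1a, which encodes the cell cycle inhibitor p21, were the 2 of 7 genes that rose, and the list had a median log2 difference of 0.20. Cdkn1a was higher by 1.48 (standard error 0.11, limma, adjusted p = 1.46e-06) with values of 11.17 to 11.66 in knock-out and 9.85 to 10.11 in wild-type mice. The paralogs Gadd45b (log2 difference 0.064, 95% interval -0.35 to 0.48) and Gadd45g (0.53, 95% interval -0.21 to 1.26, and 0.20 without wild-type mouse 3) did not pass, nor did Atf4, the stress factor upstream of Gadd45a, with -0.13 (95% interval -0.31 to 0.061).

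In the RUNX list, 6 genes were tested and the median log2 difference was 0.084. Runx1 rose, and Cbfa2t3, of a corepressor gene family that is fused to RUNX1 in leukemias, fell by 0.40 (limma, adjusted p = 0.0257). The adjusted p of Cbfa2t3 exceeded 0.05, up to 0.0709, when knock-out mouse 3, 4 or 5 or wild-type mouse 2 was left out. Runx2 had a log2 difference of 0.41 (adjusted p = 0.0797) at a low level, Cbfb, the partner of all RUNX proteins, one of -0.21 (adjusted p = 0.37, but 0.00811 with sample weights and 0.0164 with the Y-linked covariate), and Runx3 lay under the expression limit. Among the 7 genes linked to NCAM, St8sia2, which encodes an enzyme that adds polysialic acid to NCAM, rose by 0.55 (standard error 0.17, limma, adjusted p = 0.0441), and L1cam, a related adhesion molecule, fell by 0.43 (standard error 0.13, adjusted p = 0.0474). Both calls were borderline. Only without knock-out mouse 3 or 5 or wild-type mouse 3 did St8sia2 keep its adjusted p under 0.05, and only without knock-out mouse 1 or wild-type mouse 3 or 4 did L1cam keep it, with values of up to 0.112 without knock-out mouse 2 and 0.126 without knock-out mouse 5. Ncam2 lay under the expression limit, and the median log2 difference of the other 6 genes was 0.31.

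**Figure D3:**
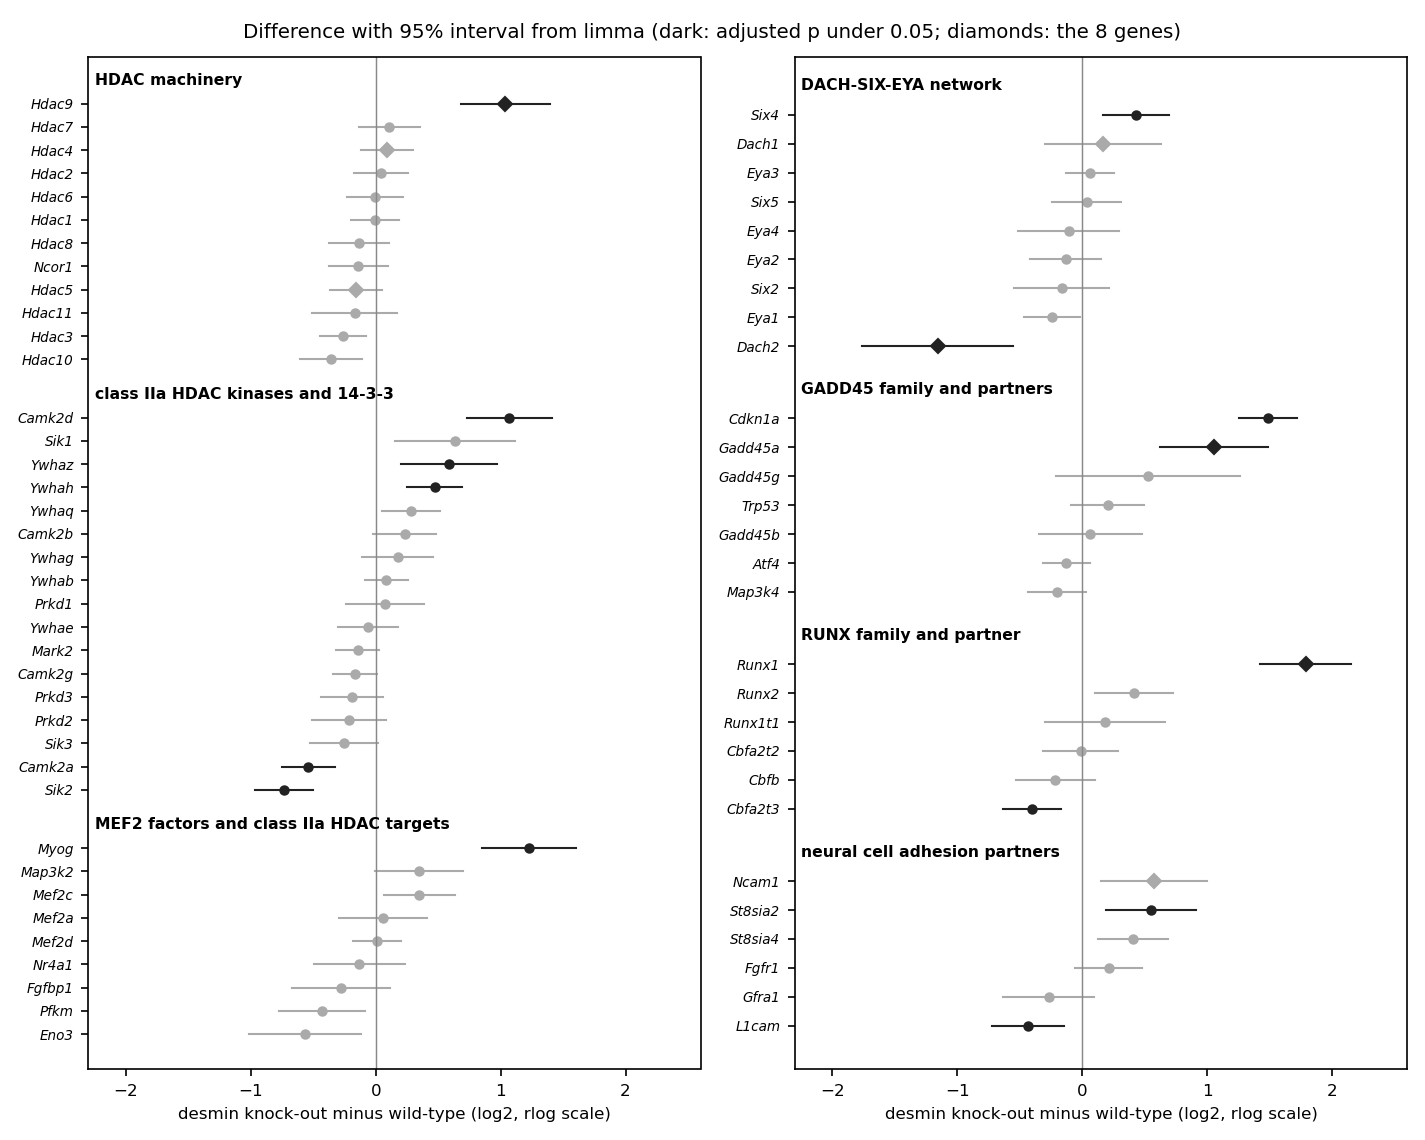
Log2 difference (desmin knock-out minus wild-type, rlog scale, horizontal axis) of the tested genes of 7 lists with the 95% interval from limma, where dark symbols have an adjusted p under 0.05 and diamonds mark the 8 genes. Hdac9, Camk2d, Myog, Cdkn1a, Gadd45a and Runx1 lie above 1, and Dach2 is the gene below -1.

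Next came a list of 24 genes linked to the response of muscle to a lost nerve, which contains Runx1, Gadd45a and Ncam1. Of the 23 that were tested, 15 were higher and 1 lower, against 7.7% and 5.99% of all tested genes, and the median log2 difference was 0.78. There were 16 higher genes without wild-type mouse 3, where 1335 of all 14289 tested genes were higher. For the 20 tested genes outside the 8 followed here the counts were 13 and 1 and the median was 0.72. This list was written with earlier results of these mice known, so it is no independent evidence of its direction. Of its genes, 12 separated the genotypes completely, all of them higher in knock-out mice, against 7.45% of all tested genes. The study names the γ subunit of the AChR, whose gene Chrng is in the list, as a marker of fiber regeneration. Whether the rises in this list stem from a lost nerve or from regeneration was not tested.

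By size, Sln, which encodes the calcium pump regulator sarcolipin, led with a log2 difference of 3.17 (adjusted p = 1.05e-09), the largest rise of all tested genes. Myh3, the embryonic myosin heavy chain gene, was higher by 2.25 (adjusted p = 5.89e-06), Kcnn3, a potassium channel gene that appears in denervated fibers, by 2.10 (adjusted p = 1.04e-06), and Chrng, the γ subunit gene of the fetal AChR, by 1.85 (all limma, adjusted p = 9.66e-05 for Chrng). Chrng lies 11.8 Mb and Myog 58.9 Mb from Des on chromosome 1, so that for them, too, linked DNA and the allele cannot be told apart. Myod1, a myogenic factor, was the gene of the list that fell (log2 difference -0.47, limma, adjusted p = 0.0219), with an adjusted p of 0.0669 without knock-out mouse 4 and 0.068 without knock-out mouse 5. The muscle ubiquitin ligase genes Fbxo32 (log2 difference -0.17) and Trim63 (-0.27), which are induced by myogenin after denervation, did not pass.

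**Figure D4:**
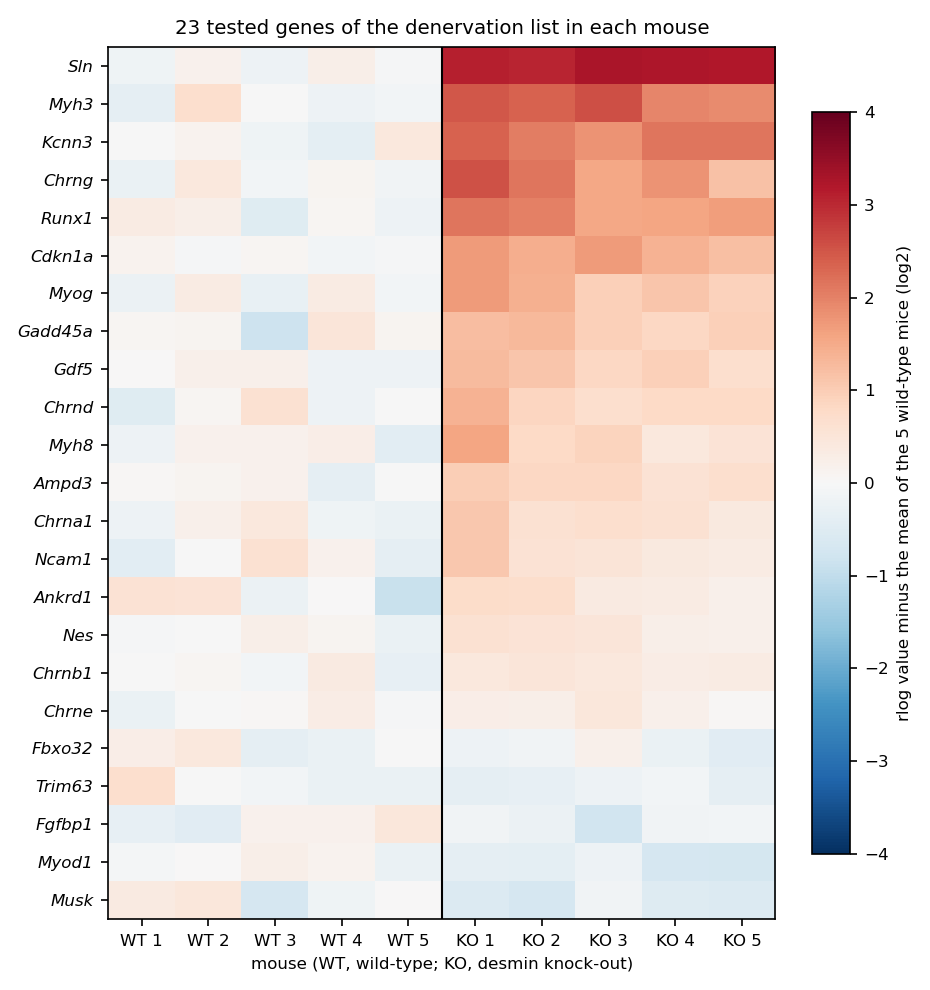
Each cell gives the rlog value of a gene (rows) in a mouse (columns) minus the mean of the 5 wild-type mice (log2, red above and blue below 0) for the 23 tested genes of the denervation list, sorted by the difference between genotypes. The upper rows, from Sln with 3.17 to Myog with 1.23, are red in all 5 knock-out mice, and the lowest rows, among them Myod1 and Musk, are pale to blue.

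Finally, for each of the 8 genes the tested genes with the most similar course over the 10 mice were sought, as the smallest root mean square (RMS) difference between values centred on each gene's mean. The nearest to Runx1 was Fst, which encodes follistatin, an inhibitor of myostatin and activins, with an RMS difference of 0.143 where Runx1 itself varied by 0.935 around its mean, and 4933415F23Rik came next (0.182). The nearest to Dach2 were Gm12240 (0.214) and Mstn, the myostatin gene (0.283), where Dach2 itself varied by 0.756. Gadd45a ran closest to Camk2d (0.187) and Map1b, a gene for a microtubule-associated protein (0.199), and Hdac9 to Hectd2os (0.142) and Tceal8 (0.148). Ncam1 was nearest to Mvp, the major vault protein gene (0.163), and Hsf2bp (0.171), both of which passed the test as higher in knock-out muscle (limma, adjusted p = 0.00645 and 0.0173). Dach1 ran with Nid2, a basement membrane gene (0.186), and Ebf1 (0.191), Hdac4 with Slc25a15 (0.0436) and Sec23ip (0.0486), and Hdac5 with Nifk (0.0378) and Snrpd3 (0.0479), of which none passed. These distances describe 10 mice and include the difference between genotypes.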

How the data were processed

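RNA of the gastrocnemius of 5 desmin knock-out and 5 wild-type mice was sequenced with stranded mRNA libraries. The submitters' processing notes list cutadapt 2.5, STAR 2.5.4a, Subread 1.6.1 with featureCounts, DESeq2 and the build GRCm38. The authors deposited rlog values on a log2 scale, and the settings of this transformation and of strand in counting are not given in the sources used here. No counts were used, so depth and counting error are unknown. The labels number the mice 1 to 5 in each genotype.

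The 14289 genes whose average rlog value reached log2(10) entered a linear model on genotype in limma 3.58.1 (R 4.3.3; moderated two-sided test with a mean-dependent variance trend), and p-values were adjusted after Benjamini and Hochberg. Single genes and differences between 2 genes were tested by exact permutation over the mice. Symbols, positions and exon lengths came from GENCODE M21 (GRCm38), which matched 54165 of 54232 genes, and promoter sequences from RefSeq for 7 of the 8 genes. The fit was tested on simulated data. Named were the 8 genes, 18 relatives and partners written down by name (of which Runx3 was not tested), up to 3 more genes per list by smallest adjusted p under 0.05, and the 2 nearest courses. Some genes of these lists are not reported here and were left out of the counts, medians and sums of the lists. The members and lists were chosen with earlier results of these data known. Alternatives were no or a higher expression limit, quantile normalization or centring on sample medians, 1 prior variance for every gene, sample weights, a replicate block, adjustment for the average of 4 Y-linked transcripts, leaving out mice singly, and a threshold of 0.01 on adjusted p.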

Additional observations from a re-analysis of the deposited data

Results flagged for a closer look

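In 30 groups of 5 mice (8 genes and 7 differences between 2 genes in each genotype), 3 had a mouse whose gap to the next was large against the range of its group (Dixon's test at 95%), where chance gives about 1.5. Knock-out mouse 3 had an Hdac4 value of 10.75, above the next knock-out mouse with 10.54. Knock-out mouse 5 had a Dach2 value of 5.59, above the next with 5.27. In wild-type mouse 3 the difference Ncam1 minus Gadd45a was -0.0821, while the next wild-type mouse had -1.67.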

How the results depend on the processing

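Runx1, Gadd45a and Hdac9 kept their direction and an adjusted p under 0.05 in all 19 alternatives, with log2 differences of 1.51 to 1.87, 0.85 to 1.18 and 0.85 to 1.13. Dach2 kept its direction (-1.57 to -0.98) but had an adjusted p of 0.0541 without an expression limit and of 0.0143 (log2 difference -1.16) against a threshold of 0.01, so that 0 of the 8 genes then counted as lower. Ncam1 passed with sample weights (log2 difference 0.65, adjusted p = 0.0018) and with the Y-linked covariate (0.82, adjusted p = 0.00139), and its exact permutation test, with p = 0.0873 each, did not pass after median centring (0.53) or quantile normalization (0.54). Hdac4 turned to -0.042 with sample weights. The cause of these shifts was not tested.

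The count over all tested genes, 1100 higher and 856 lower, became 2093 and 2127 with sample weights, which gave wild-type mouse 3 a weight of 0.1, and 623 and 371 at an adjusted p under 0.01. Over the 8 lists together, 6 lower genes became 22 with sample weights, 10 with the Y-linked covariate and 2 at an adjusted p under 0.01. When single mice were left out, the counts over all tested genes ranged from 833 to 1335 and from 560 (without knock-out mouse 5) to 1161 (without wild-type mouse 3), and the lower genes of the lists from 3 (without knock-out mouse 4 or 5) to 11 (without wild-type mouse 3). The log2 differences then ranged from 0.44 to 0.73 for Ncam1, from 0.028 to 0.14 for Hdac4, from 0.030 to 0.34 for Dach1 and from -0.21 to -0.085 for Hdac5. Mef2a turned to -0.20 with sample weights and to -0.18 with the Y-linked covariate, and Mef2d to -0.031 with median centring. Cbfb passed with sample weights (-0.40) and with the Y-linked covariate (-0.39). With 1 mouse left out, Mef2a ranged from -0.084 to 0.16, Mef2d from -0.021 to 0.052, Eya4 from -0.31 to 0.022 and Gadd45b from -0.089 to 0.21.

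The replicate numbers pair no mice by the labels, and deviations of same-numbered mice correlated between -0.219 and 0.0673, with no mouse closest to its own number. With the replicate number as a block, 913 genes were higher and 666 lower, the calls of the 8 genes stayed, and Six4, Cbfa2t3, St8sia2 and L1cam lost theirs (adjusted p = 0.0816, 0.0613, 0.0831 and 0.0967). With such a block the exact tests between 2 genes cannot go below p = 0.0625, and the changes of -0.95 (Hdac4 minus Hdac9), -1.19 (Hdac5 minus Hdac9), 1.33 (Dach1 minus Dach2), 1.21 (Runx1 minus Ncam1) and 0.73 (Runx1 minus Gadd45a) had an adjusted p of 0.0875. The unknown depth limits what can be said of weakly expressed genes such as Dach2, Runx2 and St8sia2, whose rlog values are shrunken most.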
